A study of Mus musculus with 369 samples.

Results

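Solute carriers are the gene superfamily behind most of the facilitated and ion-coupled transport of nutrients, metals, ions and metabolites across cell membranes. Here they are described in single microglia, the resident macrophages of the brain, by the substrates they carry. Members were all gene rows whose symbol has the form of a solute carrier (Slc, a family number and the letter a). They also had to reach at least 20 CPM (counts scaled to a common library size) in at least 1 of the 4 groups of cells. The glucose transporter Slc2a1 and the lactate transporters Slc16a1 and Slc16a3 were left out. Of 339 rows with such a symbol 336 remained, and 125 of them reached the level, out of 23337 gene rows in all. The values that chose the members are the same levels that are described below, so levels and differences are descriptions and carry no test.

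The cells were sorted by flow cytometry, 1 per well, from whole brains of C57BL/6J male mice at postnatal day 7. Sequencing was by Smart-seq2, in which the messenger RNA of each cell is amplified in its own well, without molecular identifiers. The mice were wild type or carried a TREM2 knockout, of which the sources used here do not give the allele. Trem2 encodes a lipid-binding surface receptor of microglia. Each genotype was sorted through a gate of low CD45 and positive CD11b (unselected cells) and through the same gate with surface Gpnmb and Clec7a (gated cells). Among wild-type cells, 78 of 90 unselected and 90 of 93 gated ones passed the quality criteria of the labels, and among knockout cells 90 of 93 unselected and 76 of 93 gated ones did. Every series of 4 values below follows this order, with both wild-type groups before both knockout groups and unselected cells first in each genotype. All cells of a group shared a plate and no label names an animal. A group is therefore 1 sample and its differences have no replicate check. Effects of the plate cannot be told apart from those of genotype and gate.

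Many solute carriers of the plasma membrane import sugars, amino acids and vitamins, and some work as pairs, such as the heavy chain Slc3a2 with light chains of the Slc7 family. Others sit in lysosomes, where they export the amino acids, sugars, nucleosides, heme and metals released from digested material, a route of particular use to phagocytes. Family Slc25 lies mostly in the inner membrane of mitochondria and exchanges nucleotides, phosphate and metabolites with the cytosol. In microglia the fructose transporter Slc2a5 is a known marker of the homeostatic state.

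Gene counts per cell ranged from 157653 to 1051282, and group sums from 38971356 to 56902287. Trem2 was at 1115, 1604, 229 and 413 CPM, so the 2 plates labelled knockout held fewer counts of it than the wild-type plates but were not free of it. All 9 microglia markers reached 20 CPM in every group, with a summed level of 46529, 31915, 46503 and 23889 CPM. Markers of border-associated macrophages, relatives of microglia at the borders of the brain, were higher in gated cells. Their summed level was 818, 1928, 861 and 1829 CPM, 8 of 10 reached 20 CPM in any group, and F13a1 was at 0, 156, 0 and 78.4 CPM. Cells with at least 3 of 6 such markers numbered 1, 11, 5 and 13. The marker lists of monocytes, neutrophils, lymphocytes, neurons, and pericytes and fibroblasts each summed to at most 5.59 CPM in any group. Those of the oligodendrocyte lineage, endothelium and red blood cells summed to at most 31.04, 36.2 and 56.3 CPM. Gene counts divided by spike-in counts had medians per cell of 24.9, 39.8, 18.1 and 53.7, so they also moved with the gate. With spike-in counts as the library size, the median log2 gate difference of all genes was 0.30 in place of -0.16 in wild type and 1.01 in place of -0.29 in knockout. The median genotype difference was -0.41 in place of 0.06 for unselected cells and 0.35 in place of -0.02 for gated cells. Levels are shares of all gene counts. For named members past the 2-fold rule defined below, directions that turn under spike-in scaling are given.

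The stretches of DNA before the start sites of 5 members are shown because results below turn on these genes. They are the fructose transporter Slc2a5, the zinc and manganese importer Slc39a8, the lysosomal sialic acid exporter Slc17a5, the sugar phosphate exchanger Slc37a2 and the phagosomal metal transporter Slc11a1. Each is 250 bases before a RefSeq start site, read 5′ to 3′ on the strand of the gene, in build GRCm38.p6, the same assembly as mm10. They lie at chr4:150119094-150119343 (plus strand, Slc2a5), chr3:135825029-135825278 and chr3:135825407-135825656 (plus strand, Slc39a8 starts 1 and 2), chr9:78588046-78588295 (minus strand, Slc17a5), chr9:37255739-37255988 (minus strand, Slc37a2) and chr1:74374953-74375202 (plus strand, Slc11a1). Capitals mark matches to any of 6 motifs searched on both strands.
Slc2a5: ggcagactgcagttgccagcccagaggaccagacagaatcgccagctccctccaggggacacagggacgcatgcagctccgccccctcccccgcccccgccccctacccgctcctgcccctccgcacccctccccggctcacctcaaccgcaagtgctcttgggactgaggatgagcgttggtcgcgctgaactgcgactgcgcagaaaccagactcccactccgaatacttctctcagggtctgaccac
Slc39a8 start 1: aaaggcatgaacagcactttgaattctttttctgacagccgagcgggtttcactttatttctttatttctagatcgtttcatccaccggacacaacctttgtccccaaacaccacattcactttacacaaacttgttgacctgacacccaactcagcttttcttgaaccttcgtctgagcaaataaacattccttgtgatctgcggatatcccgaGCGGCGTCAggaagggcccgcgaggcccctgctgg
Slc39a8 start 2: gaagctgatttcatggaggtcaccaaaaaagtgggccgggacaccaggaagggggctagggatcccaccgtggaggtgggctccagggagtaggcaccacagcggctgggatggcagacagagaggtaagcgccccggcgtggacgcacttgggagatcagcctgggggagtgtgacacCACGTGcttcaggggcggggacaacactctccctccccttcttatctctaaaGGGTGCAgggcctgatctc
Slc17a5: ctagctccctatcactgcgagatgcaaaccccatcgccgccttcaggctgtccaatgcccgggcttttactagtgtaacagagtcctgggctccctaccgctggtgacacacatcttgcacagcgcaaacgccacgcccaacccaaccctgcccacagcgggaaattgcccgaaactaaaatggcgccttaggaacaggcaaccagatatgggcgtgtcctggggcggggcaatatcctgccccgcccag
Slc37a2: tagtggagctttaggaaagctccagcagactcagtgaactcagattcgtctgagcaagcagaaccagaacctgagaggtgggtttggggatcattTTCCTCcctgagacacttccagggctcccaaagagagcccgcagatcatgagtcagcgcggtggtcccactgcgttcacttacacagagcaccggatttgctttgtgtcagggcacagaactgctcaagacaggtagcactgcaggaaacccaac
Slc11a1: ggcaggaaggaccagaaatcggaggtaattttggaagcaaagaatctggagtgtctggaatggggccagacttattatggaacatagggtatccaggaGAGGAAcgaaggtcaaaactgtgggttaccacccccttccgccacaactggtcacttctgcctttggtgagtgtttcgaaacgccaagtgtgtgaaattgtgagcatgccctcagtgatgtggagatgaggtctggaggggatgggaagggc
In start 1 of Slc39a8 the capitals are the antioxidant response core, 35 to 27 bases before the start. In start 2 they are the E-box of lysosomal genes, 71 to 66 bases before the start, which overlaps a hypoxia response core, and the metal response core, 19 to 13 bases before it. In Slc37a2 and Slc11a1 they are the PU box of myeloid genes, 155 to 150 and 152 to 147 bases before the start. The windows of Slc2a5 and Slc17a5 held none of these letters. Of the 125 members 95 were in the RefSeq table of 27025 genes. The E-box CACGTG was in 17.9% of members and 6.86% of all genes, and the shorter hypoxia core ACGTG, which it contains, in 25.3% and 18.5%. The amino acid response core TGATGNAA was in 3.16% of members and 3.91% of all genes. The antioxidant core TGACNNNGC was in 17.9% and 11.5%, the PU box GAGGAA in 24.2% and 25.9%, and the metal core TGCACNC in 17.9% and 11.8%. A match is a match of letters only. Members were chosen by their level, while the comparison set was every gene of the table, expressed in these cells or not. The shares are therefore not read as a trait of solute carriers.

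The members made up 1.23%, 1.14%, 1.18% and 1.01% of gene counts in the 4 groups. Their summed level was 12268, 11441, 11775 and 10051 CPM, and 69 of them reached 20 CPM in all 4 groups. Another 17 reached it in 3 groups, 21 in 2 and 18 in 1 group. The last are 14.4% of members, beside 14.7% of the 7657 genes that reached 20 CPM in any group. A member that reached the level only in the group where it is high had to differ between groups. Just inside the threshold lay Slc17a9 and Slc25a16 at 20.9 CPM, Slc19a2 at 22.2, Slc27a4 at 22.3 and Slc24a3 at 22.4 CPM in their highest group. Just outside lay Slc29a2 at 19.01, Slc7a6os at 18.9, Slc26a11 at 18.7, Slc25a38 at 18.4 and Slc26a6 at 18.1 CPM. Of the 211 rows below the threshold, 124 had 0 counts in all groups.

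By substrate, amino acid and peptide carriers (25 members) held the most counts, with 3103, 2682, 2683 and 2346 CPM in sum. Mitochondrial carriers (20 members) followed with 2176, 2157, 2517 and 2357 CPM, and metal carriers (21 members) with 2133, 2305, 1832 and 1749 CPM. The 17 carriers of inorganic ions and protons summed to 1123, 985, 1055 and 723 CPM. The 8 carriers of nucleosides and nucleotide sugars summed to 1151, 845, 1062 and 713 CPM. Carriers of sugars and inositol (10 members) had 1312, 963, 1098 and 854 CPM, and those of vitamins, choline and heme (10 members) 757, 991, 832 and 893 CPM. Those of organic anions, organic cations and lipids (11 members) had 428, 456, 582 and 338 CPM. The vitamin, choline and heme class had its larger sum in the gated cells of both genotypes, and the amino acid, mitochondrial, sugar, ion and nucleoside classes had it in the unselected cells of both, as shares of gene counts. The 3 remaining rows are not transporters: Slc9a3r1 encodes a scaffold protein, Slc4a1ap an adaptor protein, and Slc2a4rg-ps is a pseudogene. Per kb of merged exons, the mitochondrial carrier Slc25a5 stood highest in every group, at 413, 407, 574 and 507 CPM per kb. Slc3a2 was at 203, 152, 140.0 and 107, Slc2a5 at 187, 71.97, 199 and 10.9 and Slc11a1 at 80.5, 163, 72.8 and 115 CPM per kb.

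**Figure D1:**
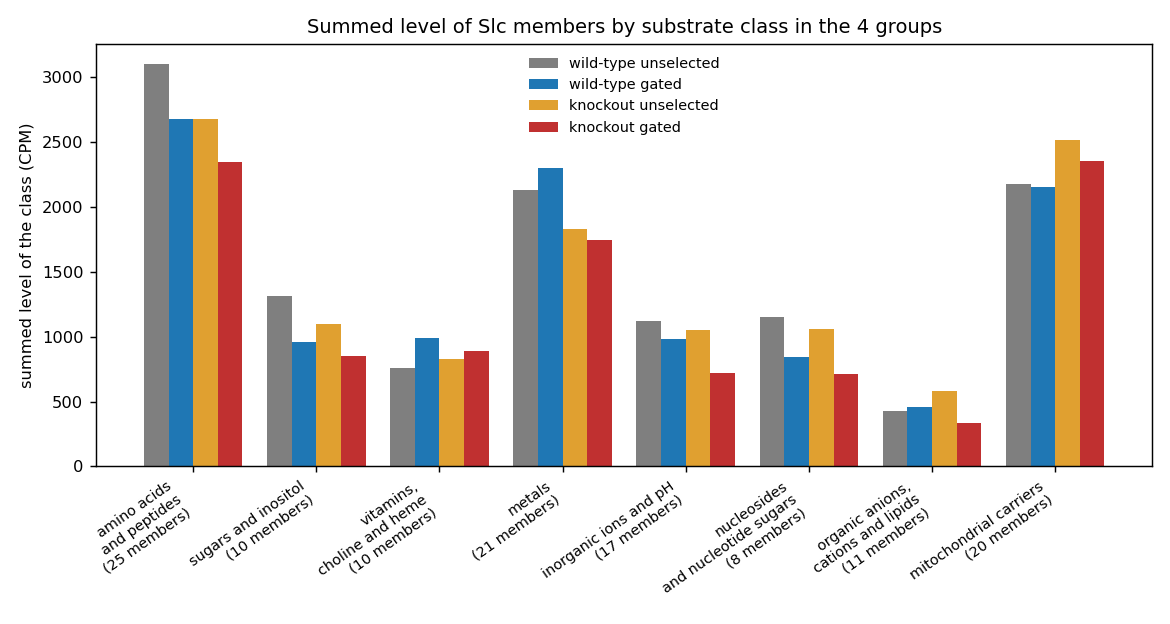
Bars give the summed level of the members of each of the 8 substrate classes in the 4 groups, in CPM on an axis that starts at 0, with 1 plate per group and no error bar. Amino acid and peptide carriers ranged from 2346 to 3103 CPM, and only the class of vitamins, choline and heme had its larger sum in the gated cells of both genotypes.

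Knockout gated cells expressed the widest set of carriers per cell. After each cell was thinned to 100000 gene counts, the median cell had counts for 32.5, 37, 26 and 48.5 of the 125 members. The number of all genes detected in thinned cells moved in the same way, with medians of 2295.5, 2639.5, 1945.5 and 3466. The median share of members among detected genes was 1.43%, 1.42%, 1.29% and 1.38%.

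**Figure D2:**
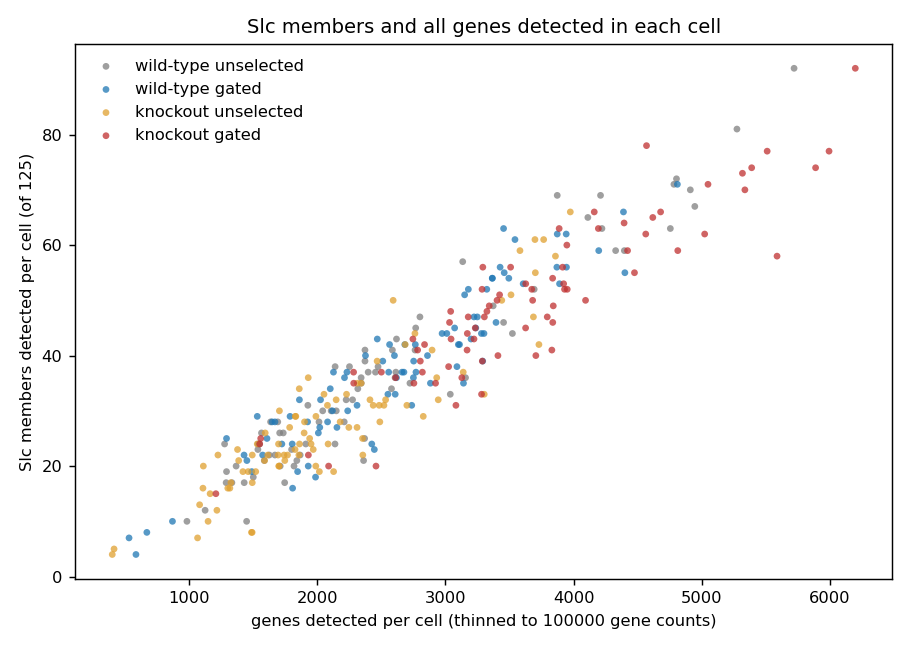
Each point is 1 of 334 cells thinned to 100000 gene counts, with the number of all detected genes on the horizontal axis and the number of detected solute carrier members of 125 on the vertical axis, coloured by group. Cells with more detected genes had more detected members, and the knockout gated cells reach furthest along both axes, with medians of 3466 genes and 48.5 members.

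A difference counts as past the 2-fold rule here when it is at least 2-fold on levels plus 1 CPM. It must also have the same direction in the mean over cells and without the cell that holds most of the gene's counts. For the gate in wild type, 16 of 125 members were higher and 22 lower in gated cells, which is 12.8% and 17.6% of members beside 11.02% and 17.64% of the 7657 genes. For the gate in knockout, 16 were higher and 22 lower, again 12.8% and 17.6%, beside 8.78% and 19.88% of all genes. For the genotype in unselected cells, 14 were higher and 12 lower in knockout cells, or 11.2% and 9.6%, beside 12.05% and 9.57% of all genes. For the genotype in gated cells, 8 were higher and 16 lower, or 6.4% and 12.8%, beside 7.69% and 8.68% of all genes. The members' shares lay near those of all genes, so the counts are not read as a result about solute carriers as a set. Counts by class and by list below hold few genes each, with 1 plate per group. They are descriptions only, to be set beside these all-gene shares. The members' median log2 differences were -0.17, -0.32, -0.06 and -0.05 in the 4 comparisons, beside -0.16, -0.29, 0.06 and -0.02 over all genes. In all, 67 members passed the rule in at least 1 comparison and 58 in none. The genotype comparisons use the same cells as the gate comparisons, so the 4 sets of values are not independent. With spike-in scaling the members higher and lower numbered 27 and 11 for the gate in wild type, 64 and 4 for the gate in knockout, 7 and 30 for the genotype in unselected cells, and 19 and 8 in gated cells. With TMM or DESeq2 factors the gate gave 20 and 17 members in wild type and 19 and 16 in knockout. With cells thinned to equal depth the gate in knockout gave 12 and 27.

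The 2 gate comparisons share no cells. In both, 6 members were higher in gated cells: Slc7a4, Slc24a5, Slc36a2, Slc44a1, Slc45a4 and Slc52a2. They are 37.5% of the higher members of each genotype, beside 28.9% and 36.3% of the higher genes of wild type and knockout over all genes. All 6 reached 20 CPM in gated cells only, so the threshold kept them through groups where they are high. Another 9 were lower in both, among them Slc2a5, Slc39a8, Slc43a1, Slc7a1, Slc20a1, Slc26a2, Slc4a7 and the pseudogene Slc2a4rg-ps. They are 40.9% of the lower members of each genotype, beside 39.3% and 34.9% over all genes. Among these, Slc7a1, Slc20a1, Slc26a2, Slc43a1 and Slc2a4rg-ps reached 20 CPM in unselected cells only. Both overlaps are descriptions only. Under spike-in scaling the gate in knockout turned to higher for Slc2a4rg-ps. The rule was passed in opposite directions by Slc22a5, Slc24a3, Slc37a3 and Slc5a6. Across the 125 members the gate differences of the 2 genotypes had a Pearson correlation of 0.48 and a Spearman correlation of 0.41, and 68% had the same sign. Over all 7657 genes these values were 0.35, 0.32 and 63.9%.

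**Figure D3:**
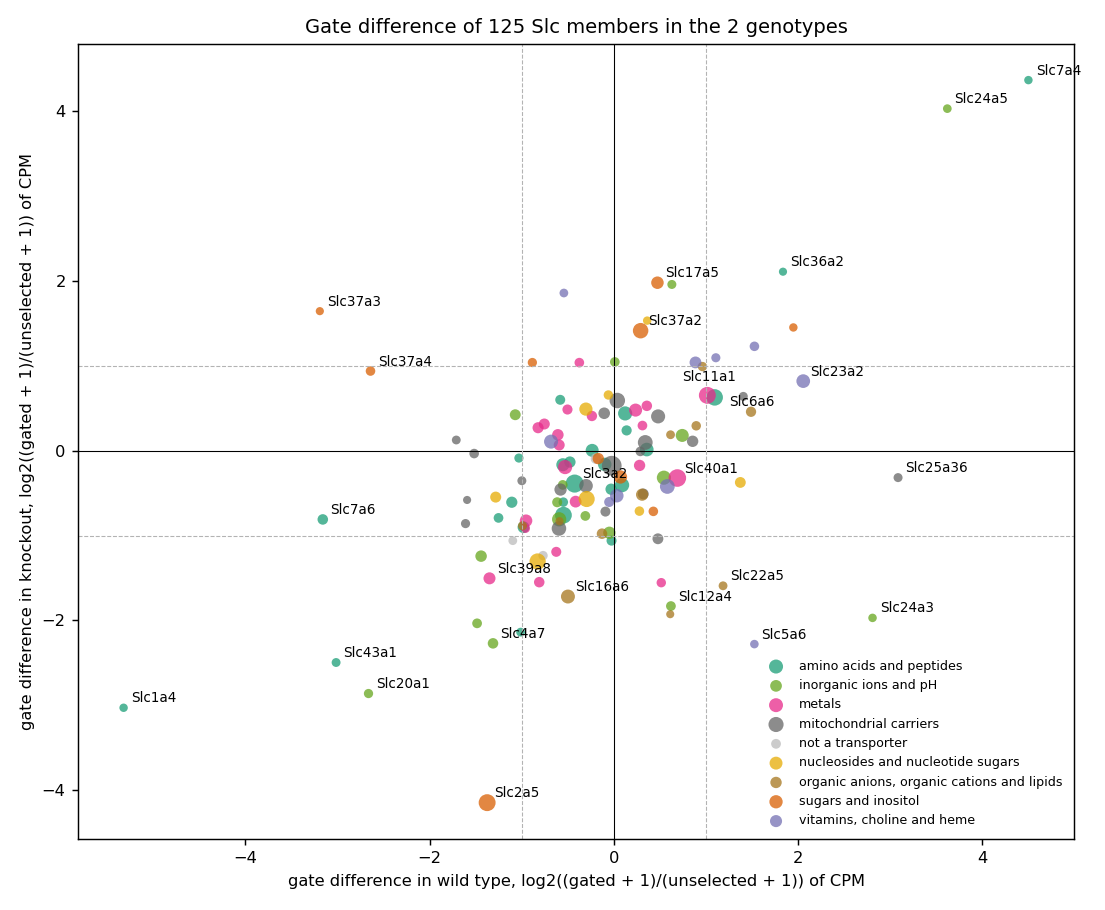
Each point is 1 of the 125 members, with its gate difference in wild-type cells on the horizontal axis and in knockout cells on the vertical axis, both as log2 ratios of CPM plus 1 (gated over unselected); larger points have higher mean levels, colours give the substrate class, and dashed lines mark 2-fold. Slc7a4 and Slc24a5 sit at the upper right, Slc1a4, Slc43a1 and Slc20a1 at the lower left, and Slc2a5 at -1.37 and -4.15.

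Among sugar carriers, the fructose transporter Slc2a5 showed the largest differences for the gate in knockout and the genotype in gated cells among the 35 members with a mean level of at least 100 CPM. Slc2a5 (ENSMUSG00000028976.10, chromosome 4, 150119283 to 150144169, plus strand, mm10) was at 636, 245, 676 and 37.2 CPM. It was thus 2.60-fold (2.54 to 2.66) lower in gated than in unselected wild-type cells and 18.2-fold (17.3 to 19.03) lower in gated knockout cells, where brackets give the 95% counting interval. Unselected cells of the 2 genotypes were close to each other, while gated knockout cells lay 6.58-fold (6.27 to 6.91) below gated wild-type cells. After thinning, Slc2a5 was detected in 75.6, 47.8, 71.1 and 17.1% of cells, and the median cell had 499, 9.12, 461 and 0 CPM. The wild-type gated plate therefore held cells at the level of unselected cells beside cells without counts. Both unselected plates also held cells without detected Slc2a5, at smaller shares. The highest cells of the 4 groups had 3097, 2123, 4495 and 648 CPM. The microglia markers Tmem119, at 2222, 369.6, 2107 and 111 CPM, and P2ry12, at 5263, 1782, 5418 and 729 CPM, were likewise lower in gated cells and lowest in knockout gated cells. Their part in the Slc2a5 result was not tested. Without the 30 cells with border-associated macrophage markers the log2 differences of Slc2a5 were -1.23 and -3.91 for the gate and -2.61 for the genotype in gated cells, beside -1.37, -4.15 and -2.68 with them.

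Of the sugar phosphate and sialic acid carriers of internal membranes, Slc17a5 exports sialic acid from lysosomes and was at 60.5, 84.4, 51.1 and 204 CPM, so that knockout gated cells stood above the 3 other groups. It was 4.0-fold (3.84 to 4.17) higher with the gate in knockout and 2.42-fold (2.34 to 2.51) higher in knockout than in wild-type gated cells. It was detected in 17.9, 41.1, 20 and 82.9% of cells, with 95% intervals of 12.3 to 29.8 in knockout unselected and 72.5 to 90.6 in knockout gated cells. Slc37a2, a glucose-6-phosphate exchanger of the endoplasmic reticulum found in macrophages, was at 258, 316, 136 and 365 CPM and was detected in 57.7, 70, 38.9 and 90.8% of cells. It passed the rule for the gate in knockout only, at 2.68-fold (2.61 to 2.75) higher, and the difference between the gate differences of the 2 genotypes was not tested. Slc37a4, the glucose-6-phosphate carrier that feeds glucose release, was at 37.95, 5.25, 19.2 and 37.7 CPM, so that wild-type gated cells were 7.24-fold (6.37 to 8.25) below wild-type unselected cells and 7.19-fold (6.34 to 8.18) below knockout gated cells. Slc37a3, a lysosomal relative, was at 24.6, 1.80, 2.58 and 10.2 CPM, and 59.3% of the counts in its highest group came from 1 cell.

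Of the 10 sugar carriers, 1 was higher and 3 lower with the gate in wild type, beside 11.02% and 17.64% of all genes. With the gate in knockout 5 were higher and 1 lower, beside 8.78% and 19.88%. With 10 members and 1 plate per group this is a description only. For the genotype 0 were higher and 2 lower in unselected cells, and 3 were higher and 3 lower in gated cells. Over all genes these shares were 12.05% and 9.57% in unselected and 7.69% and 8.68% in gated cells. Slc2a8, an intracellular glucose transporter, was at 161, 169.8, 113 and 91.1 CPM and passed no rule. Slc2a6, a lysosomal hexose transporter, was at 28.8, 15.2, 12.6 and 27.01 CPM, lower in knockout than in wild-type unselected cells and higher with the gate in knockout, both near the 2-fold limit. Slc5a3 imports inositol with sodium and was at 26.02, 35.4, 24.96 and 14.8 CPM, with its lowest value in knockout gated cells. Slc45a4, of a family of proton-coupled sugar carriers, was at 6.004, 26.1, 3.80 and 12.12 CPM. It was higher in gated cells of both genotypes, although 1 cell held 95.7% of its counts in wild-type unselected cells. Slc50a1, a glucose carrier of the sweet family, stayed between 54.7 and 72.3 CPM.

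**Figure D4:**
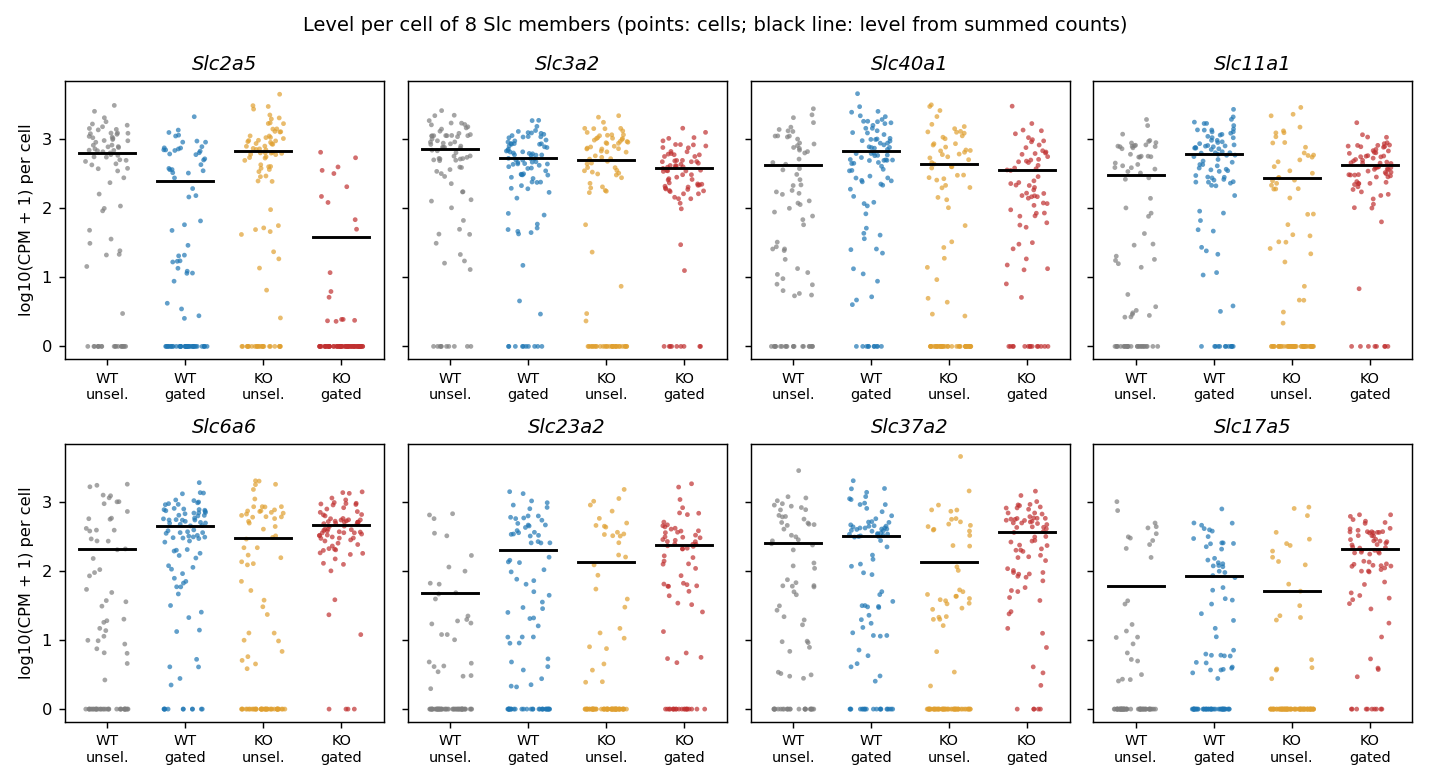
Points are single cells in the 4 groups (WT wild type, KO knockout, unsel. unselected), with the level of each of 8 members as log10 of CPM plus 1 on the vertical axis, and black lines mark the level from summed counts. Most knockout gated cells lie at 0 for Slc2a5, whose median cells had 499, 9.12, 461 and 0 CPM, while most of them hold counts for Slc6a6, Slc11a1, Slc37a2 and Slc17a5.

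Among amino acid carriers, the heavy chain Slc3a2 and the light chain Slc7a8 were abundant in every group. Slc3a2 anchors light chains in the membrane and was at 718, 535, 494 and 377 CPM, detected in 85.9, 86.7, 65.6 and 88.2% of cells. Slc7a8 exchanges neutral amino acids together with Slc3a2 and was at 488, 334, 443 and 261 CPM, detected in 85.9, 78.9, 84.4 and 90.8% of cells. For both genes all 4 differences stayed below 2-fold, at most 1.70-fold (1.66 to 1.73) for the gate in knockout. Slc7a7, the light chain that exports arginine and lysine, was at 221, 241, 109 and 149 CPM and 2.02-fold (1.96 to 2.09) lower in knockout than in wild-type unselected cells. It was detected in 65.4, 66.7, 28.9 and 69.7% of cells. Slc7a6, a close relative of Slc7a7, was at 89.7, 9.15, 45.8 and 25.7 CPM, with its low value in wild-type gated cells, 9.80-fold (8.91 to 10.8) below wild-type unselected cells. Other known partners of Slc3a2 were near the floor. Slc7a5, the main leucine exchanger of many dividing cells, was at 0.436, 1.66, 1.11 and 2.28 CPM, and Slc7a11, the cystine importer, had 2 counts over all passing cells.

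The taurine importer Slc6a6 was the abundant amino acid carrier that was higher in gated cells. It was at 206, 442, 302 and 467 CPM, 2.14-fold (2.09 to 2.20) higher with the gate in wild type and 1.55-fold (1.52 to 1.58) higher in knockout, where it stayed under the 2-fold rule. Its median cell had 8.26, 324, 7.27 and 391 CPM, and it was detected in 51.3, 83.3, 50 and 93.4% of cells. Slc7a4, which resembles the arginine importers but has no known substrate, was at 0, 21.7, 0.316 and 26.1 CPM. It had 0 counts in wild-type unselected cells, so the level in gated cells was at least 281-fold higher, taking 3 counts over the unselected group as the floor. In knockout cells it was 82.6-fold (52.1 to 139.9) higher with the gate. Only 8.89% of wild-type gated and 15.8% of knockout gated cells had counts for it. Of its exon bases 13.3% overlap P2rx6 on the other strand, and the sources used here do not say whether strand was used in counting. Slc36a2, a proton-coupled glycine and proline importer, was at 6.26, 24.9, 0.844 and 6.95 CPM and passed the rule in all 4 comparisons. Its levels rest on few cells, since 1 cell held 56.4% of its wild-type gated counts and another 75.4% of its wild-type unselected counts.

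Several importers of neutral and cationic amino acids were lower in gated cells. Slc1a4, which carries serine and alanine, was at 38.98, 0, 8.45 and 0.158 CPM. It had 0 counts in wild-type gated cells, at least 699-fold lower than in wild-type unselected cells, with 3 counts over the group as the floor. In knockout unselected cells all of its counts came from 1 cell, so the gate in knockout did not pass the rule. Slc43a1, a carrier of large neutral amino acids, was at 26.9, 2.46, 32.7 and 4.97 CPM, 10.96-fold (9.14 to 13.2) lower with the gate in wild type and 6.57-fold (5.76 to 7.53) lower in knockout. The arginine importer Slc7a1 was at 20.9, 9.86, 25.7 and 5.07 CPM and lower in gated cells of both genotypes. The glutamine importer Slc1a5, at 35.7, 14.4, 38.3 and 21.7 CPM, and Slc36a4, at 24.8, 11.6, 21.8 and 20.5 CPM, passed the rule as lower for the gate in wild type. So did Slc43a3, at 83.7, 38.3, 68.9 and 44.9 CPM, which is classed here by its family and not by a known amino acid substrate. The related Slc43a2 was at 173, 161, 120.3 and 107 CPM. The glutamate importer Slc1a3 is best known from astrocytes and was at 41.7, 41.01, 32.2 and 14.9 CPM. The other 7 astrocyte markers all stayed below 20 CPM, and the 8 summed to 41.7, 68.6, 33.9 and 29.1 CPM. Slc1a3 was 2.16-fold (1.98 to 2.35) lower with the gate in knockout and 2.75-fold (2.53 to 2.99) lower in knockout than in wild-type gated cells, and the gate difference turned to 0.22 (log2) under spike-in scaling.

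Of the 25 amino acid and peptide carriers, 3 were higher and 7 lower with the gate in wild type, beside 11.02% and 17.64% of all genes. The 7 lower ones include Slc43a3, which is in the class by its family only. In knockout 2 were higher and 3 lower, beside 8.78% and 19.88%. For the genotype 0 were higher and 4 lower in unselected cells, and 1 was higher and 2 lower in gated cells. Over all genes these shares were 12.05% and 9.57% in unselected and 7.69% and 8.68% in gated cells. The peptide and histidine carriers of lysosomes, Slc15a3 and Slc15a4, were at 46.5, 30.8, 19.3 and 29.8 and 153, 104, 124 and 111 CPM. Slc15a3 was 2.41-fold (2.23 to 2.60) lower in knockout unselected cells, and 28.1% of its exon bases overlap Tmem132a on the other strand. The glutamine carriers Slc38a1 and Slc38a2 were at 116, 149.5, 169 and 170.5 and 67.9, 48.6, 68.9 and 62.7 CPM, and the lysosomal glutamine exporter Slc38a7 at 137, 116, 113 and 113 CPM. Slc38a9, the arginine sensor of the lysosome, was at 122, 61.3, 79.6 and 42.1 CPM, with lower values in gated cells that stayed under the 2-fold rule. The other 4 members, Slc16a10, Slc36a1, Slc38a6 and Slc38a10, ranged from 12.8 to 246 CPM and passed no rule.

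Among metal carriers, the iron exporter and the phagosomal metal transporter were the most abundant. Slc40a1, ferroportin, the only known iron exporter of animal cells, was at 418, 675, 441 and 352 CPM, with its highest value in wild-type gated cells. Knockout gated cells were 1.91-fold (1.88 to 1.95) below them, just under the 2-fold rule. Slc11a1, which moves iron and manganese out of phagosomes, was at 298, 604, 269.9 and 425 CPM, 2.03-fold (1.98 to 2.07) higher with the gate in wild type and 1.57-fold (1.54 to 1.61) higher in knockout. It was detected in 57.7, 84.4, 45.6 and 89.5% of cells, and its median cell had 23.8, 447, 0.587 and 367 CPM. The related Slc11a2 was at 37.3, 48.1, 32.6 and 47.5 CPM and passed no rule. Slc39a7, a zinc carrier of the early secretory pathway, was at 220.5, 153, 187 and 164 CPM, but 80.7% of its exon bases overlap a readthrough transcript on the same strand. The copper importer Slc31a1 was at 131, 154, 86.4 and 121 CPM and its relative Slc31a2 at 95.4, 62.3, 49.7 and 56.7 CPM.

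The zinc and manganese importer Slc39a8, whose start 2 has the metal response core shown above, was lower in gated cells of both genotypes. It was at 142, 54.96, 100.1 and 34.6 CPM, 2.58-fold (2.46 to 2.69) lower with the gate in wild type and 2.89-fold (2.74 to 3.05) lower in knockout. Detection was 41.03, 25.6, 28.9 and 26.3% of cells, so in knockout cells the shares of unselected (19.8 to 39.4) and gated cells (16.9 to 37.7) overlapped within counting error. Without the 30 cells with border-associated macrophage markers its gate difference in knockout was -2.31 (log2) in place of -1.50, and in cells with 2000 to 4000 detected genes it was -0.80. Under spike-in scaling it was -0.19 in knockout, and -0.89 in place of -1.35 in wild type. The zinc importer Slc39a10 was at 54.7, 30.8, 60.8 and 20.1 CPM and 3.02-fold (2.82 to 3.24) lower with the gate in knockout. Under spike-in scaling that difference was -0.25 in place of -1.55 (log2). Slc39a6, another zinc importer, was at 20.6, 29.9, 31.04 and 9.90 CPM, with the lowest value in knockout gated cells. The zinc importer Slc39a3 was at 59.9, 41.98, 14.1 and 20.2 CPM, 4.23-fold (3.91 to 4.59) lower in knockout than in wild-type unselected cells and 2.08-fold (1.93 to 2.24) lower in gated cells. The magnesium carrier Slc41a1, at 31.9, 15.96, 13.7 and 6.79 CPM, was likewise lower in knockout cells through both gates. Slc22a17, a receptor for the iron-binding protein lipocalin, was at 53.1, 34.1, 30.6 and 12.8 CPM and 2.66-fold (2.43 to 2.91) lower in knockout than in wild-type gated cells. For the gate in knockout it was 2.38-fold (2.18 to 2.61) lower, a direction that turned under spike-in scaling. Slc30a6, a zinc carrier of the Golgi, was at 31.8, 24.3, 15.7 and 33.4 CPM. The zinc importer Slc39a1 stood out for its even spread, at only 48.3, 58.9, 73.9 and 65.4 CPM but detected in 80.8, 83.3, 83.3 and 96.1% of cells, and it was named after its values were seen.

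Of the 21 metal carriers, 1 was higher and 1 lower with the gate in wild type, beside 11.02% and 17.64% of all genes. In knockout 1 was higher and 4 lower, beside 8.78% and 19.88%. For the genotype 0 were higher, with 2 lower in unselected and 4 lower in gated cells. Over all genes 12.05% were higher and 9.57% lower in unselected cells, and 7.69% and 8.68% in gated cells. The other 7 members, Slc30a5, Slc30a7, Slc30a9, Slc39a9, Slc39a11, Slc39a13 and Slc41a3, ranged from 19.5 to 137 CPM and passed no rule. Of 10 other genes of iron and zinc handling at 20 CPM or more, 5 were higher and 0 lower with the gate in wild type. In knockout 4 were higher and 2 lower. The same all-gene shares apply, and with 10 genes and 1 plate per group this is a description only. For the genotype 3 were higher in unselected cells and 1 in gated cells. The iron storage genes Fth1, at 883, 1854, 928 and 1910.3 CPM, and Ftl1, at 2262, 5201, 2349 and 5450.1 CPM, and the heme-degrading enzyme Hmox1, at 62.8, 147, 51.8 and 205 CPM, were higher in gated cells of both genotypes. The transferrin receptor Tfrc was at 0.0513, 0, 28.8 and 2.18 CPM, almost all of it in knockout unselected cells.

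Among carriers of vitamins, choline and heme, Slc23a2, the sodium-coupled importer of vitamin C, was at 46.7, 198, 133 and 236 CPM, 4.23-fold (4.02 to 4.45) higher with the gate in wild type and 1.77-fold (1.72 to 1.82) higher in knockout. It was also 2.85-fold (2.71 to 3.0) higher in knockout than in wild-type unselected cells. Detection was 29.5, 56.7, 27.8 and 72.4% of cells, so the 2 unselected groups differed in level but hardly in the share of cells. The lysosomal heme exporter Slc48a1 was at 55.1, 103, 48.5 and 101 CPM, 1.86-fold (1.77 to 1.96) higher with the gate in wild type and 2.08-fold (1.98 to 2.18) higher in knockout, and only the latter passed the rule. The choline carrier Slc44a1 was at 10.03, 22.8, 13.5 and 30.01 CPM and higher in gated cells of both genotypes. The riboflavin importer Slc52a2 was at 14.04, 42.3, 12.6 and 30.9 CPM and likewise higher in both, but with cells thinned to equal depth its gate difference in knockout turned to -0.14 (log2).

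Of the 10 members of this class, 4 were higher and 0 lower with the gate in wild type, beside 11.02% and 17.64% of all genes. In knockout 4 were higher and 1 lower, beside 8.78% and 19.88%, and with 10 members and 1 plate per group this is a description only. For the genotype 2 were higher and 1 lower in unselected cells, and 0 passed the rule in gated cells. Over all genes 12.05% were higher and 9.57% lower in unselected cells, and 7.69% and 8.68% in gated cells. The choline carrier Slc44a2 was at 248, 154, 137 and 148 CPM and the lysosomal carrier Slc46a3 at 172, 258, 252 and 188 CPM, with differences under the 2-fold rule in all 4 comparisons. The folate importers Slc46a1 and Slc19a1 were at 148, 152, 164 and 113 and 37.5, 36.2, 34.2 and 22.2 CPM and passed no rule either. The thiamine importer Slc19a2 was at 22.2, 14.95, 4.27 and 18.1 CPM, and 1 cell held 98.8% of its counts in knockout unselected cells. Slc5a6, which imports biotin and pantothenate, was at 3.13, 10.9, 33.2 and 6.04 CPM, with its high value in knockout unselected cells, where 1 cell held 47.7% of the counts.

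Among carriers of inorganic ions and protons, Slc12a9, an orphan of the cation and chloride cotransporter family, was at 284, 188, 167 and 94.8 CPM and was detected in 66.7, 61.1, 44.4 and 53.9% of cells. Its knockout gated level was 1.98-fold (1.91 to 2.05) below the wild-type gated one, just under the 2-fold rule. The bicarbonate importer Slc4a7 was at 76.2, 30.1, 53.6 and 10.3 CPM, 2.53-fold (2.38 to 2.69) and 5.19-fold (4.73 to 5.71) lower with the gate in wild type and knockout. The phosphate importer Slc20a1 was at 26.8, 3.39, 47.99 and 5.74 CPM, 7.91-fold (6.75 to 9.31) lower with the gate in wild type and 8.36-fold (7.40 to 9.46) lower in knockout. The sulfate carrier Slc26a2 was at 36.1, 12.3, 51.4 and 11.8 CPM, with both unselected groups above both gated groups. Slc24a5, a potassium-dependent exchanger of sodium and calcium known from pigment cells, was at 0.770, 20.8, 1.20 and 34.9 CPM, with both gated groups above both unselected groups. It was 26.99-fold (18.8 to 40.2) higher with the gate in wild type and 29.2-fold (22.9 to 37.7) higher in knockout, and was detected in 3.85, 8.89, 5.56 and 19.7% of cells. Of its exon bases 39.5% overlap Myef2 on the other strand, so these counts cannot be assigned with certainty.

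Of the 17 ion carriers, 2 were higher and 5 lower with the gate in wild type, and 3 higher and 6 lower in knockout, where lower calls also outnumber higher ones over all genes (17.64% against 11.02% in wild type and 19.88% against 8.78% in knockout). For the genotype 2 were higher and 1 lower in unselected cells, and 0 higher and 3 lower in gated cells. Over all genes these shares were 12.05% and 9.57% in unselected and 7.69% and 8.68% in gated cells. The sodium and calcium exchanger Slc8a1 was at 112, 108, 99.4 and 50.4 CPM and 2.15-fold (2.05 to 2.25) lower in knockout than in wild-type gated cells. The endosomal proton exchanger Slc9a9 was at 155, 227, 182 and 146 CPM and the sodium, potassium and chloride cotransporter Slc12a2 at 90.5, 152, 114 and 129.5 CPM, both under the 2-fold rule throughout. The proton exchanger Slc9a7, at 14.1, 22.3, 6.82 and 29.4 CPM, was lowest in knockout unselected cells and passed the rule as higher for the gate in knockout. The anion exchanger Slc4a2 was at 80.8, 37.98, 35.6 and 48.1 CPM, with its highest value in wild-type unselected cells. The potassium and chloride cotransporter Slc12a4, at 14.4, 22.7, 59.8 and 16.1 CPM, was highest in knockout unselected cells. The calcium exchanger Slc24a3 was at 2.18, 21.3, 22.4 and 4.97 CPM, high in wild-type gated and knockout unselected cells. In the latter 1 cell held 59.4% of the counts, and the direction of its gate difference in knockout turned in cells with 2000 to 4000 detected genes. Another 3 members, Slc9a8, Slc12a7 and Slc24a6, ranged from 15.8 to 40.4 CPM and passed no rule.

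Of the nucleoside carriers, the lysosomal Slc29a3 was at 469, 264, 427 and 172 CPM and the plasma membrane Slc29a1 at 389, 317, 340.2 and 229 CPM. Slc29a3 was 2.48-fold (2.42 to 2.54) lower with the gate in knockout, where its log2 difference turned to 0.026 under spike-in scaling. It was detected in 78.2, 62.2, 67.8 and 73.7% of cells, so the knockout gated cells with counts had lower ones. Among nucleotide sugar carriers of the Golgi, Slc35a3, which carries UDP-N-acetylglucosamine, was at 75.6, 30.5, 63.6 and 43.2 CPM and lower with the gate in wild type. Slc35a5 was at 23.5, 62.5, 62.8 and 48.3 CPM and passed the rule as higher with the gate in wild type and in knockout unselected cells. The carrier of CMP-sialic acid Slc35a1 was at 15.3, 18.7, 40.6 and 24.4 CPM and 2.66-fold (2.43 to 2.92) higher in knockout than in wild-type unselected cells. Slc35a4 was at 151, 122, 102 and 143 CPM and the UDP-galactose carrier Slc35a2 at 20.01, 19.2, 19.7 and 31.6 CPM, and neither passed a rule. Slc17a9, which loads nucleotides into vesicles, was at 8.44, 11.14, 6.56 and 20.9 CPM. Of the 8 members, 1 was higher and 1 lower with the gate in each genotype. Over all genes these shares were 11.02% and 17.64% in wild type and 8.78% and 19.88% in knockout. For the genotype 2 were higher and 0 lower in unselected cells, beside 12.05% and 9.57% of all genes, and 0 passed in gated cells.

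Of the 11 carriers of organic anions, organic cations and lipids, 6 were higher and 0 lower in knockout unselected cells, beside 12.05% and 9.57% of all genes. Of these 6, Slc22a21, Slc18a2 and Slc10a7 reached 20 CPM in knockout unselected cells only, so the threshold kept them through the group where they are high, and the count is not read as a result about the class. Of the same 11, 2 were higher and 2 lower in knockout gated cells, beside 7.69% and 8.68% of all genes. With the gate 2 were higher and 0 lower in wild type, and 0 higher and 3 lower in knockout. Over all genes these shares were 11.02% and 17.64% in wild type and 8.78% and 19.88% in knockout. The most abundant was Slc16a6, of the monocarboxylate family, at 219, 155, 225 and 67.6 CPM, 3.32-fold (3.20 to 3.45) lower with the gate in knockout and 2.29-fold (2.20 to 2.38) lower in knockout than in wild-type gated cells. Under spike-in scaling the gate difference of Slc16a6 in knockout was -0.39 in place of -1.72 (log2). Its detection was 62.8, 51.1, 51.1 and 52.6% of cells, and 23.5% of its exon bases overlap Amz2 on the other strand. The 6 higher in knockout unselected cells were all low in level. Slc22a21 and Slc22a5 are close paralogues that carry carnitine and lie near each other on chromosome 11, so reads between them may not be assigned with certainty. They were at 0.616, 0.0744, 22.99 and 12.5 and 9.80, 23.6, 23.1 and 7.01 CPM. Slc18a2, which loads monoamines into vesicles, was at 2.93, 5.003, 23.1 and 5.35 CPM, Slc10a7 at 14.9, 6.99, 35.96 and 19.01 CPM, Slc10a3 at 15.7, 45.9, 36.8 and 50.9 CPM and the fatty acid carrier Slc27a4 at 8.11, 12.96, 19.4 and 22.3 CPM. Each was detected in at most 11.11% of knockout unselected cells. The fatty acid carrier Slc27a1 was at 87.1, 108, 96.8 and 67.3 CPM and the monocarboxylate carrier Slc16a7 at 36.98, 33.8, 65.01 and 32.5 CPM, and neither passed a rule. Slc16a13 and the acetyl-CoA carrier Slc33a1 ranged from 13.9 to 33.7 CPM.

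The most abundant mitochondrial carriers differed little between groups. The adenine nucleotide exchanger Slc25a5 was at 681, 670.2, 944 and 835 CPM and was detected in 94.9, 96.7, 94.4 and 97.4% of cells, with a largest difference of 1.39-fold (1.37 to 1.41). Its paralogue Slc25a4 was at 188, 239, 217 and 232 CPM and the phosphate carrier Slc25a3 at 239.6, 246, 237 and 357 CPM. Of 20 members, 2 were higher and 4 lower with the gate in wild type, beside 11.02% and 17.64% of all genes. In knockout 0 were higher and 1 lower, beside 8.78% and 19.88%. For the genotype 2 were higher and 2 lower in unselected cells, and 2 higher and 2 lower in gated cells. Over all genes these shares were 12.05% and 9.57% in unselected and 7.69% and 8.68% in gated cells. The aspartate and glutamate carriers Slc25a12 and Slc25a13 parted in gated cells. Slc25a12 was at 51.7, 72.4, 50.5 and 24.1 CPM and 3.01-fold (2.82 to 3.21) lower in knockout than in wild-type gated cells, and Slc25a13 was at 9.57, 2.23, 24.7 and 27.1 CPM and 12.13-fold (10.06 to 14.7) higher. In cells with 2000 to 4000 detected genes the log2 difference of Slc25a13 was 0.32 in place of 3.12, and the gate difference of Slc25a12 in knockout turned to 0.26 under spike-in scaling. Slc25a36, which carries pyrimidine nucleotides, was at 3.16, 34.3, 19.1 and 15.2 CPM, with wild-type unselected cells 10.9-fold (9.05 to 13.2) below wild-type gated cells. The carnitine and acylcarnitine exchanger Slc25a20 was at 10.4, 29.3, 11.7 and 18.8 CPM. The iron importer Slc25a37 was at 41.8, 13.04, 16.2 and 8.46 CPM and Slc25a16 at 20.9, 6.27, 6.54 and 4.04 CPM, both highest in wild-type unselected cells. The calcium-regulated nucleotide carrier Slc25a25 was at 29.5, 9.65, 31.5 and 30.8 CPM, with a gate difference in wild type that turned in cells with 2000 to 4000 detected genes. The other 10 members ranged from 11.9 to 261 CPM and passed no rule.

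The 3 rows that are not transporters were at 36.4, 31.7, 60.8 and 56.9 CPM (Slc9a3r1), 24.9, 14.2, 33.8 and 13.8 CPM (Slc4a1ap) and 23.7, 10.5, 18.7 and 8.46 CPM (Slc2a4rg-ps). Under spike-in scaling the gate differences in knockout of the last 2 turned from lower to higher.

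**Figure D5:**
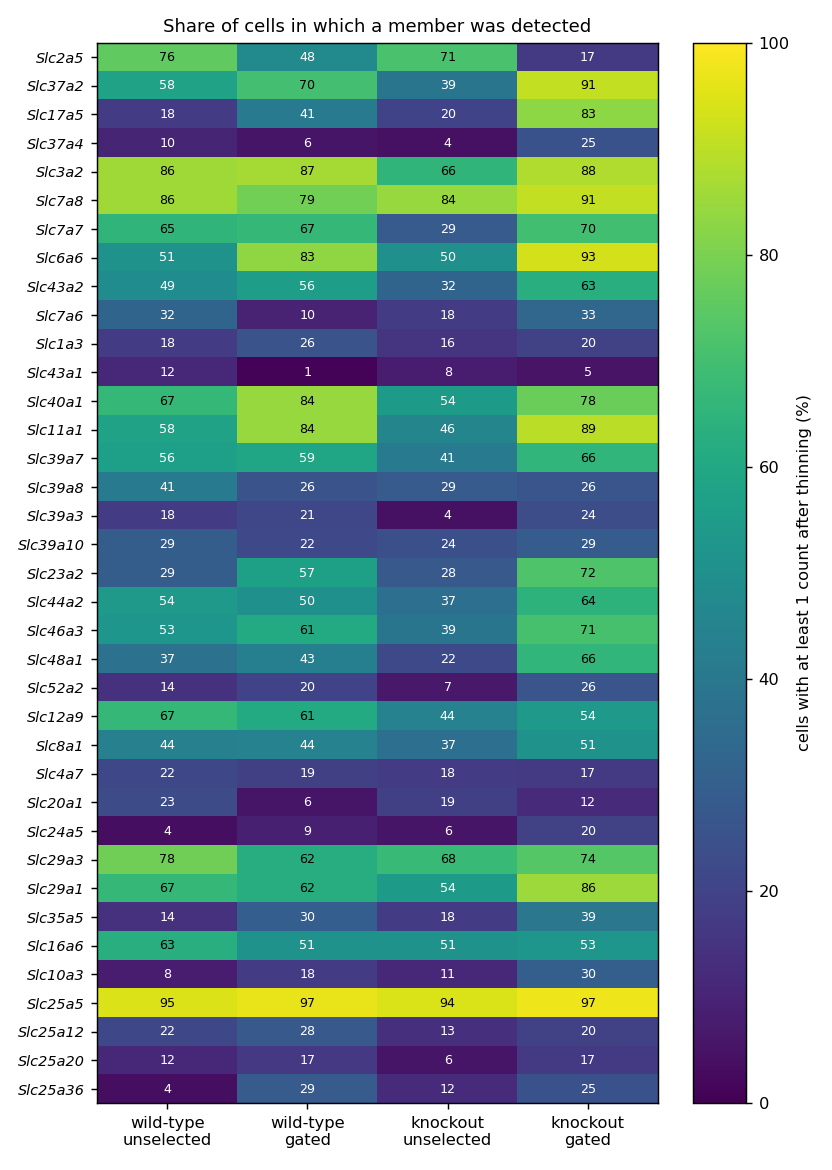
Each cell of the grid gives the percent of cells in a group (columns) with at least 1 count for a member (rows) after thinning to 100000 gene counts, printed as a whole number and coloured from 0 to 100. Slc25a5 was detected in at least 94.4% of cells in every group, and in knockout gated cells Slc2a5 was detected in 17.1% and Slc17a5 in 82.9%.

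Members that share a place or a regulator were also counted, from lists chosen by function. Over all genes, 11.02% were higher and 17.64% lower with the gate in wild type, and 8.78% and 19.88% in knockout. For the genotype the all-gene shares were 12.05% and 9.57% in unselected cells and 7.69% and 8.68% in gated cells. With few genes per list and 1 plate per group, the counts below are descriptions only. Of 15 lysosomal members, 1 was higher and 1 lower with the gate in wild type and 3 were higher and 1 lower in knockout, with median log2 differences of -0.55 and -0.09 beside -0.16 and -0.29 over all genes. For the genotype 0 were higher and 2 lower in unselected cells, and 1 was higher and 0 lower in gated cells. Of 5 members that are known targets of the amino acid response, the program that cells start when amino acids are short, 0 were higher and 3 lower with the gate in wild type and 0 higher and 1 lower in knockout. Their median log2 differences with the gate were -1.01 and -0.79, beside -0.16 and -0.29 over all genes. All 5 were negative in both genotypes, as shares of gene counts. Of these, Slc1a4 and Slc7a1 reached 20 CPM in unselected cells only, so the threshold kept them through groups where they are high. The shared sign is therefore not read as a result about the response. Under spike-in scaling the all-gene median for the gate in knockout was 1.01, so the sign of small differences there depends on the scaling. From the lysosomal and amino acid response lists, Slc7a5, Slc7a11, Slc6a9 and Slc7a3 stayed below 20 CPM in every group and were not counted. Of 9 other genes of that response and of serine synthesis, 2 were higher and 3 lower with the gate in wild type, and 1 higher and 3 lower in knockout. Atf4, its transcription factor, was at 91.7, 38.4, 61.8 and 42.1 CPM, and Psat1, an enzyme of serine synthesis, at 163, 256, 189 and 435 CPM. Of 13 genes of amino acid sensing at the lysosome, 3 were higher and 2 lower with the gate in wild type, and 2 higher and 1 lower in knockout. Rragc, a small GTPase of that machinery, was at 57.1, 127, 91.2 and 248 CPM and higher in gated cells of both genotypes. Of 7 genes of glutathione and the antioxidant response, 0 were higher and 1 lower with the gate in wild type and 1 was higher and 0 lower in knockout, in both cases Txnrd1, at 40.1, 17.2, 16.2 and 44.3 CPM.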

How the data were processed

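Single cells were sequenced with Smart-seq2, without molecular identifiers. The authors deposited raw counts of reads per gene for 369 cells (23337 gene rows and 92 spike-in rows). All 369 column sums equal the totals in the labels, and 0 columns were identical. HTSeq, Picard, STAR 2.5.3a and Trim Galore 0.4.3 were used with mm10, per the submitters' processing notes. The annotation and strandedness of the counts were not given in the sources used here. In all, the 3 quality criteria in the labels were met by 334 cells. No doublet caller was run, since wells received single cells by sorting.

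Counts were summed over the cells of a group and scaled to CPM on gene counts without the spike-ins, which held 3.56% of counts. Intervals are at the 95% level (exact Poisson for levels, conditional binomial for ratios, Clopper-Pearson for shares) and cover counting error only, since amplified reads are not independent molecules. Differences are log2 ratios of CPM plus 1, which understates differences of genes at low levels. The 2-fold rule also asks for the same direction in the mean CPM per cell and without the cell that holds most counts of the gene. Shares of cells detected used cells thinned to 100000 gene counts, and 0 cells were shallower. Groups are 1 plate each, so no model was fitted and no p-value computed. The steps were tested on simulated Poisson counts with known changes. These hold no amplification noise and no single cell that dominates a gene, so false calls of the rule in real cells were not measured.

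Substrate classes were assigned by family with single genes overridden, so a member such as Slc43a3 can differ in substrate from its class. In addition, 2 rows were moved to the non-transporters after their symbols were seen. Members, classes and lists were chosen with earlier results of these data known. Named members are the 3 with the highest mean level per class, and up to 3 higher and 3 lower ones past the rule per class and comparison. Slc2a5, Slc7a11, Slc3a2, Slc7a5, Slc11a1, Slc40a1, Slc1a3 and Slc15a3 were always named, and the 5 members and 5 rows nearest the threshold. Up to 4 genes were named from each other list. The remaining members are named to account for the rows, after their values were seen, except for a few genes that are counted but not reported here. Gene positions and exon overlaps come from GENCODE M21 (mm10), where all 125 members were matched, 1 by another symbol. For 11 members over 10% of exon bases are shared with another gene. Promoters come from RefSeq (GRCm38.p6). Alternatives were mean CPM per cell, TMM factors (edgeR 4.0.16), DESeq2 1.42.0 size factors, spike-in scaling, thinning, pseudocounts, filters and subsets of cells, in Python 3.11.15 with pandas 2.3.3.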

Additional observations from a re-analysis of the deposited data

Results flagged for a closer look

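Members whose gate differences passed the 2-fold rule in opposite directions in the 2 genotypes are listed here, and the differences between genotypes were not tested, since each group is 1 plate. The carnitine importer Slc22a5 had a log2 gate difference of 1.19 in wild type and -1.59 in knockout, so knockout minus wild type was -2.78. The calcium exchanger Slc24a3 had 2.81 and -1.97, a difference of -4.78. The biotin and pantothenate importer Slc5a6 had 1.53 and -2.28, a difference of -3.81. The lysosomal carrier Slc37a3 went the other way, with -3.19 and 1.64, a difference of 4.83. All 4 were at 33.2 CPM or less in every group, and 1 cell held between 27.9% and 72.3% of their counts in a group.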

How the results depend on the processing

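Counts of members past the 2-fold rule are given in the order gate in wild type, gate in knockout, genotype in unselected cells and genotype in gated cells, where the report has 16, 16, 14 and 8 higher and 22, 22, 12 and 16 lower. With spike-in counts as the library size they were 27, 64, 7 and 19 higher and 11, 4, 30 and 8 lower, and the all-gene medians moved with them. Relative to those medians, by size alone and without the checks of direction, 20, 19, 14 and 8 members were higher and 17, 16, 16 and 16 lower. Counted in that way on shares of gene counts, 20, 19, 14 and 8 were higher and 17, 17, 18 and 16 lower. Counts also moved with the filter, which by construction tests fewer or more members. At 20 CPM as the mean of the 4 groups (97 members) they were 6, 7, 5 and 4 higher, and 13 lower for the gate in wild type, 5 and 10 lower for the genotype. At 50 CPM in any group (69 members) they were 5, 3, 4 and 2 higher and 9, 11, 3 and 7 lower. At 100 CPM as the mean (35 members), a filter added after the data were seen, they were 3, 2, 1 and 1 higher and 1, 3, 1 and 2 lower. At 5 CPM in any group (164 members), 25 were higher with the gate in each genotype and 20 for the genotype in gated cells, and 34, 25 and 26 were lower for the gate in wild type and the genotype in unselected and gated cells. With a pseudocount of 5 CPM, 10 were higher with the gate in knockout. Without the top cell of each gene, 14 were higher for the genotype in gated cells. In cells with 2000 to 4000 detected genes 21 were lower for the genotype in unselected cells and 18 higher in gated cells. Of 120 counts under alternatives 41 moved by over 1.5 times, and the cause was not tested except where the filter sets the number of members.

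Of 1166 values, for the 106 differences picked by the naming rule under 11 alternatives, 6 turned in direction. With spike-in scaling the gate difference in knockout became 0.22 for Slc1a3, 0.26 for Slc25a12, 0.026 for Slc29a3, 0.18 for Slc2a4rg-ps and 0.040 for Slc4a1ap, and the median of the 3 rows that are not transporters 0.18 (log2). With thinned cells that of Slc52a2 became -0.14. Differences outside these 106 also turned. Under spike-in scaling the gate difference in knockout of Slc22a17 became 0.079. In cells with 2000 to 4000 detected genes that of Slc24a3 became 0.71, and the gate difference in wild type of Slc25a25 became 0.13. No paired analysis was possible because each group is 1 plate and the labels number no replicates.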

Other observations

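Solute carriers that go by other symbols were counted in the same way, from a list chosen with earlier results of these data known. Of 25 at 20 CPM or more, 4 were higher and 1 lower with the gate in wild type, and 3 higher and 5 lower in knockout. For the genotype 2 were higher and 2 lower in unselected cells, and 1 was higher and 2 lower in gated cells. Over all genes, 11.02% were higher and 17.64% lower with the gate in wild type, and 8.78% and 19.88% in knockout. For the genotype the all-gene shares were 12.05% and 9.57% in unselected cells and 7.69% and 8.68% in gated cells. The counts are descriptions only. The organic anion carrier Slco2b1 was at 1062, 724, 999 and 199 CPM (unselected and gated wild-type cells, then unselected and gated knockout cells), so that its low value was in knockout gated cells, as for Slc2a5. Ank, which exports pyrophosphate and ATP, was at 20.9, 233, 57.7 and 256 CPM, and the phosphate exporter Xpr1 at 9.83, 38.5, 8.89 and 24.6 CPM, both higher in gated cells of both genotypes. Slco4a1 was at 62.1, 0.186, 20.7 and 2.099 CPM and lower in gated cells of both.

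Of 10 ion pumps and partner proteins of transporters, 2 were higher and 0 lower with the gate in wild type and 2 higher and 1 lower in knockout. Over all genes these shares were 11.02% and 17.64% in wild type and 8.78% and 19.88% in knockout. Bsg, the chaperone of monocarboxylate carriers, was at 585, 657, 537 and 652 CPM.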
